A study of Mus musculus with 12 samples.

Results

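The genes described here are 31 of the 41457 in each library's table: the chaperones, oxidoreductases and entry machinery of the endoplasmic reticulum (ER), the genes of ER-associated degradation, and the sensors of the unfolded protein response. They were chosen by name, with earlier results of these data known. All 31 passed the filter on low reads in every comparison as reported. Derl3 failed it in 2 of the alternative fits of Th1 against Th2. By role they fall into 4 sensors or transcription factors, 9 genes of the chaperone BiP and its partners, 2 lectin chaperones, 4 disulfide isomerases, 5 genes of protein entry and glycosylation, and 7 degradation genes.

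Poly(A) RNA was sequenced from CD4+ T cells of spleen and lymph nodes, taken from C57BL/6 mice whose NFATc1 cannot be SUMOylated (NFATc1/ΔS) or from wild-type (WT) C57BL/6 mice, to ask what this change does in T helper cells. All cells received antibodies to CD3 and CD28 and were cultured in 3 ways: Th1 with 10 ng/ml IL-12 and anti-IL-4, Th2 with 50 ng/ml IL-4 and anti-IFN-γ, and Th17 with 0.5 ng/ml TGFβ, 20 ng/ml IL-6 and both blocking antibodies. Cells were collected at day 2.5 or day 3.5. Each of the 12 combinations of culture, genotype and day was sequenced as 1 library, without replicates. Nothing in the labels ties a library to an animal or a culture of its own, and the p values below therefore measure only how far these libraries spread, which may be technical. Th1 and Th2 cultures used RPMI with 0.5 µg/ml anti-CD3 and Th17 cultures used IMDM with 0.25 µg/ml, so for Th17 the culture, its medium and its anti-CD3 dose cannot be told apart. In these bulk samples fewer cells of a type and less RNA per cell cannot be told apart.

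Proteins bound for secretion or for membranes enter the ER through the Sec61 channel, receive sugar chains and disulfide bonds, and fold with the help of BiP (Hspa5), GRP94 (Hsp90b1), calnexin, calreticulin and the disulfide isomerases. When unfolded protein accumulates, 3 membrane sensors respond: IRE1α (Ern1) splices the mRNA of the transcription factor XBP1, PERK (Eif2ak3) slows translation, and ATF6 is cut to release a transcription factor. ATF6 and spliced XBP1 raise the transcription of chaperone and degradation genes. T helper cells that start to secrete cytokines after activation put a load on this machinery. The counts used here are per gene: they show neither Xbp1 splicing nor the activity of a sensor.

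Library depth was 13417121 to 17774400 reads on genes, with 78.9 to 81.4% of them uniquely mapped. Summed markers followed the label of each culture. Levels are in CPM, reads scaled to library size. The 4 Th1 genes summed to 419 to 546 CPM in Th1 libraries and 42.1 to 186 CPM elsewhere. The 4 Th2 genes summed to 716 to 1215 CPM in Th2 libraries and 75.0 to 122 CPM elsewhere. The 4 Th17 genes summed to 82.9 to 175 CPM in Th17 libraries and 3.33 to 14.4 CPM elsewhere. The largest part of the Th1 sum was Il12rb2 (254 to 441 CPM in Th1 libraries). In the Th1 NFATc1/ΔS day 2.5 library Ifng had 187 CPM beside 254 CPM of Il12rb2. Cxcr3, also a Th1 gene, did not follow the label at day 3.5. It had 1.70 and 2.52 CPM in Th1 day 3.5 libraries and 6.68 and 12.1 CPM in Th1 day 2.5 libraries, against 2.96 to 4.35 CPM in Th2 libraries. The 4 T cell markers summed to 1307 to 1876 CPM. Gene counts of Nfatc1 do not check the genotype labels, since the change alters the protein. The day 2.5 Th1 libraries stood apart. The library labelled Th1 WT day 2.5 correlated at 0.966 to 0.979 with Th17 libraries and at 0.951 to 0.959 with the other Th1 libraries, across genes on the log2 CPM scale, whereas the pair of Th1 day 3.5 libraries correlated at 0.990 with each other. The library labelled Th1 NFATc1/ΔS day 2.5 correlated at 0.929 to 0.959 with the other Th1 libraries and at 0.9205 to 0.952 with Th17 libraries. Results that rest on Th1 libraries are therefore given with and without them, and the main genotype and day fits use the 8 Th2 and Th17 libraries.

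Per exon length, P4hb was the most abundant of the 31, at 444 to 2026 TPM (reads scaled to exon length and library size) with a median of 1254 over the 12 libraries. P4hb encodes the archetypal protein disulfide isomerase. Calr, Hsp90b1, Hspa5 and Canx followed with medians of 581, 462, 379 and 368 TPM. The sensors were far lower: Ern1 had 1.81 to 3.49 TPM, Atf6 11.2 to 16.1 TPM and Eif2ak3 12.7 to 32.7 TPM, while Xbp1, the target of IRE1α, had 158 to 425 TPM. Derl3, which encodes a derlin of the degradation channel, was close to undetected, at 1 to 21 reads per library (0.0981 to 2.18 TPM). Manf, Syvn1 and Derl2 overlap other genes that had 33.6 to 75.0% of their reads, and the strand setting of the counting is not given in the sources used here, so reads of these 3 genes and of their neighbours may be mixed. Sec61b, Derl1, Sec61a1 and Manf had only 71.9%, 78.1%, 82.4% and 84.7% of their reads uniquely mapped.

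**Figure D1:**
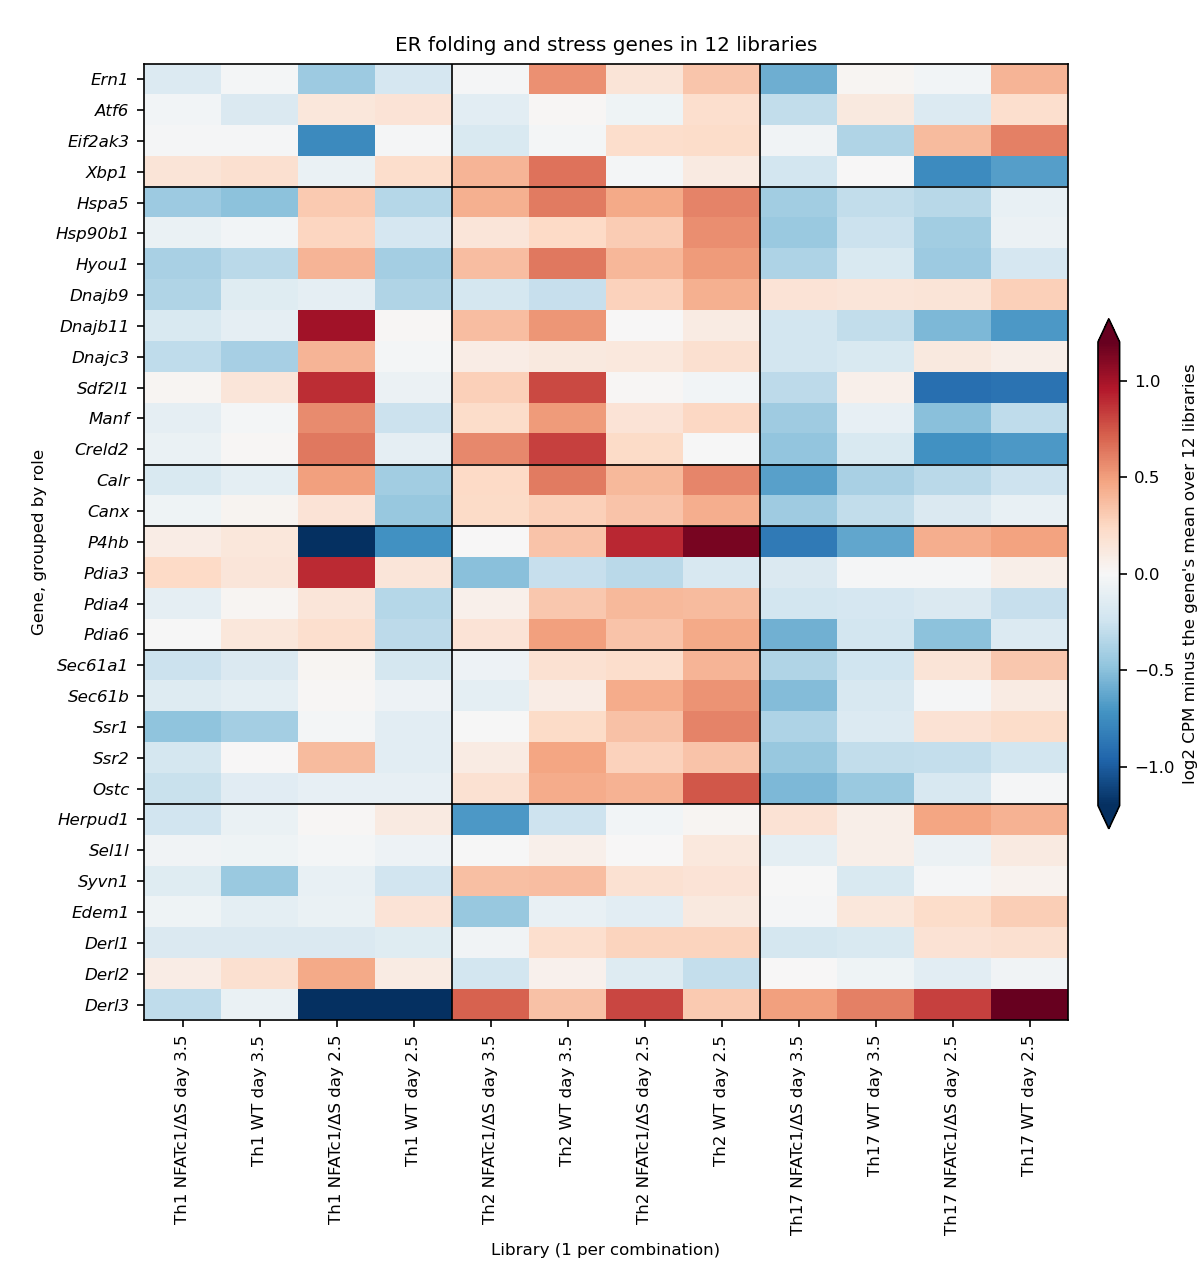
Level of each of the 31 genes (rows, grouped by role) in each of the 12 libraries (columns, 1 library each). Colour is the log2 CPM minus the gene's own mean over the 12 libraries, capped at 1.2 either way. Th2 libraries are red for most chaperones and isomerases, and P4hb and Derl3 show the widest range.

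Chaperone promoters in other studies carry the ER stress response element (ERSE), whose CCAAT end binds NF-Y and whose CCACG end binds ATF6 or XBP1. Promoter windows in RefSeq (GRCm38.p6, 250 bases before to 50 after the start site) were matched for 24 of the 31 genes by symbol. ERSE, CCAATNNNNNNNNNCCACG on either strand, was found in 9 of the 24 (37.5%) and in 39 of all 32851 windows (0.119%). ERSE-II, ATTGGNCCACG on either strand, was found in Herpud1 and Dnajb11, 2 of the 24 (8.33%), and in 12 of all windows (0.0365%). No window of these 24 genes held both. A match is a description of the letters and says nothing of binding in these cells. The elements are shown because genes that carry them reappear below, mainly in the comparison of Th2 with Th17. The fixed letters are in capitals, 5′ to 3′ in the orientation of the element:

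Calr: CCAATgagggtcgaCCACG

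Canx: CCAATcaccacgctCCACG

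Creld2: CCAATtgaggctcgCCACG

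Derl3: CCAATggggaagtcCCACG

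Dnajc3: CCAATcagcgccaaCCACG

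Hsp90b1 upstream site: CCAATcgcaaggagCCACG

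Hsp90b1 downstream site: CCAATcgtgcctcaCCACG

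Hspa5: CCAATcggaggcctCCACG

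Pdia6: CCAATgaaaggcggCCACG

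Syvn1: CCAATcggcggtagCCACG

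Dnajb11: ATTGGcCCACG

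Herpud1: ATTGGgCCACG

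The elements stood 44 to 212 bases before the start site, counted at their 5′ end along the gene, except that of Dnajb11, which began 7 bases after it. The upstream windows of 6 genes follow, printed along the gene's strand with the element in capitals (as CGTGG and ATTGG where it lies on the opposite strand). They are Hspa5, chr2:34771840-34772089 (plus strand), Hsp90b1, chr10:86705445-86705694 (minus strand), Calr, chr8:84846932-84847181 (minus strand), Creld2, chr15:88819396-88819645 (plus strand), Pdia6, chr12:17266339-17266588 (plus strand), and Herpud1, chr8:94386179-94386428 (plus strand), chosen as the most abundant chaperones, the gene with the largest Th2 excess, a gene that differed between genotypes, and a gene that differed the other way between cultures:

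Hspa5: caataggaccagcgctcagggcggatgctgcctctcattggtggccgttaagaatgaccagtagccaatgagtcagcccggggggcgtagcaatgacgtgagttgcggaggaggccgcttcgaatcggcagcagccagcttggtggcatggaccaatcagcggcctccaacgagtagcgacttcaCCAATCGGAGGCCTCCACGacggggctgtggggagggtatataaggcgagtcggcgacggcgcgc

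Hsp90b1: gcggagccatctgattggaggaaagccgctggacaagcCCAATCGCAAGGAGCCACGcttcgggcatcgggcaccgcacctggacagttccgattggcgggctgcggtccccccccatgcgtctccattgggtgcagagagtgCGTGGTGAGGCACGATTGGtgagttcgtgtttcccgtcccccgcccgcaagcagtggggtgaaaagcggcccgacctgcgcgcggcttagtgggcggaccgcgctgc

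Calr: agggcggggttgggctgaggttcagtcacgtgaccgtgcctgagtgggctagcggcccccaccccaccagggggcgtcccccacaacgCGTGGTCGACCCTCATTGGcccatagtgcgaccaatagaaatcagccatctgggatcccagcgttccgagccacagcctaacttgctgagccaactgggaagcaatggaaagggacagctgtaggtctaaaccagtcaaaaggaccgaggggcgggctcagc

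Creld2: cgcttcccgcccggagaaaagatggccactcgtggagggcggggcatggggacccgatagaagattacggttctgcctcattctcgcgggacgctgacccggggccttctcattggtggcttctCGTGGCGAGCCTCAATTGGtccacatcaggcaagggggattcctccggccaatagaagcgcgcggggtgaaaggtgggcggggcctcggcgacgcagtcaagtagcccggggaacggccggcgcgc

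Pdia6: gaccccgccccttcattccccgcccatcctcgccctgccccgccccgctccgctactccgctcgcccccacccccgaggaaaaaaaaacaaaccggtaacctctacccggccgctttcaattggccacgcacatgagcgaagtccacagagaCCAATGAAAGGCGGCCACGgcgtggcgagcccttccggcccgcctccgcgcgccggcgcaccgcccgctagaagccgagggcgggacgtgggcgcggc

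Herpud1: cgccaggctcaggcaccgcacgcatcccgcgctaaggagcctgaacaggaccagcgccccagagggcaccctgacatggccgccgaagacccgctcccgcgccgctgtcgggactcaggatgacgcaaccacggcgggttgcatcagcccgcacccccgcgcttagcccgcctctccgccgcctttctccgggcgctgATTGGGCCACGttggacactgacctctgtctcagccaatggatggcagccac

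The first comparison asked whether the genotype changed these genes. In Th2 and Th17 cultures Atf6 and Pdia6 were lower in NFATc1/ΔS libraries and no member was higher. Estimates were below 0 for 30 of the 31 members, with a median log2 change of -0.18 (NFATc1/ΔS over WT), against 51.3% of all 13086 genes tested and a median of -0.004. The estimates lay between -0.45 and 0.038, and those of 29 members did not pass the threshold of an adjusted p under 0.05. In 19 members the NFATc1/ΔS library was the lower in all 4 pairs. In each single pair 50.7 to 52.4% of all genes were lower, and the share of all genes lower in all 4 was not computed. Over all genes, 0.68% were called higher and 1.28% lower, so the 2 members called lower are a larger share of the 31. The members share the same 8 libraries, and their common sign is a description with no test of its own.

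Atf6 (ENSMUSG00000026663, chr1:170704674-170867771 in GRCm38), the sensor that is cut in the Golgi, had 40.5 CPM in the NFATc1/ΔS library and 44.6 CPM in the WT library of Th2 cells at day 3.5, and 42.6 against 50.7 CPM at day 2.5. In Th17 cells it had 36.1 CPM in NFATc1/ΔS against 47.7 CPM in WT at day 3.5, and 39.3 against 50.6 CPM at day 2.5. The NFATc1/ΔS library was the lower in all 4 pairs, and its 4 values all lay below the 4 WT values. The log2 change was -0.29 ± 0.067 (SE, 4 pairs, edgeR adjusted p = 0.0387). Pdia6 (ENSMUSG00000020571, chr12:17266545-17284770), a disulfide isomerase that works with BiP, had 274 and 309 CPM in NFATc1/ΔS Th2 libraries, against 343 and 335 CPM in WT Th2 libraries. In Th17 cells it had 164 and 174 CPM in NFATc1/ΔS and 209.8 and 218 CPM in WT libraries. It too was lower in all 4 pairs, with a gap wider between cultures than between genotypes, and its log2 change was -0.28 ± 0.062 (SE, 4 pairs, edgeR adjusted p = 0.0309).

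Both calls were fragile. No member was called without the day 2.5 pair of Th2 or without either pair of Th17, Atf6 alone was called without the day 3.5 pair of Th2, and without pair terms or with all 12 libraries in the fit none was called. DESeq2 called Pdia6 (adjusted p = 0.00832) and Hsp90b1 (adjusted p = 0.0429), both lower, and not Atf6 (adjusted p = 0.176).

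Of the other sensors, Ern1 had 7.64 and 8.58 CPM in NFATc1/ΔS and 11.3 and 9.77 CPM in WT Th2 libraries. In Th17 it had 5.16 and 7.55 CPM in NFATc1/ΔS and 7.86 and 10.2 CPM in WT libraries. The NFATc1/ΔS value was the lower in each pair, and the change of -0.45 ± 0.12 did not pass (SE, 4 pairs, edgeR adjusted p = 0.0786). Eif2ak3 showed a log2 change of -0.027 ± 0.084 and Xbp1 one of -0.18 ± 0.059, with edgeR adjusted p of 0.94 and 0.167. Hspa5, the main ER chaperone, had a log2 change of -0.18 ± 0.064 (SE, 4 pairs, edgeR adjusted p = 0.211). Derl3 had 13 and 13 reads in NFATc1/ΔS and 10 and 9 reads in WT Th2 libraries (day 3.5, then day 2.5), and 15 and 13 reads in NFATc1/ΔS and 12 and 21 reads in WT Th17 libraries. At this depth no change was detectable, with an estimate of -0.013 ± 0.33 (SE). By role the median log2 changes were -0.23 for the sensors, -0.18 for BiP and its partners, -0.16 for the lectin chaperones, -0.18 for the isomerases, -0.18 for entry and glycosylation and -0.069 for degradation.

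Within 1 culture no member passed. In Th2 cells 29 of the 31 estimates were below 0 (median -0.18; over all genes 0.214% were called higher and 0.718% lower), and in Th17 cells 25 were (median -0.14; 0.703% higher and 1.02% lower), with Atf6 nearest to the threshold in Th17 cells (log2 change -0.38 ± 0.091, SE, edgeR adjusted p = 0.0519). No member had a genotype effect that differed between Th17 and Th2 cells (over all genes 0.214% higher and 0.0841% lower) or between day 3.5 and day 2.5 (0.16% higher and 0.115% lower). Counts of members at an unadjusted p under 0.05 in these 4 tests were 14, 8, 1 and 2, against 1343, 1519, 808 and 1369 of all 13086 genes. The largest estimated difference between days was that of Sdf2l1, which binds J proteins of the ER, at -0.46 ± 0.12 (SE, edgeR adjusted p = 0.133).

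The Th1 pairs differed in direction. In the Th1 day 2.5 pair 22 of the 31 members were higher in the NFATc1/ΔS library (median log2 ratio 0.25), while in the Th1 day 3.5 pair 22 were lower (median -0.075), as were 29 in Th2 day 3.5, 24 in Th2 day 2.5, 25 in Th17 day 3.5 and 27 in Th17 day 2.5. Over all genes the share lower in NFATc1/ΔS was 49.7 to 52.4% across the 6 pairs. In the Th1 day 2.5 pair Hspa5 had 747 CPM in NFATc1/ΔS and 475 CPM in WT, Calr 849 and 449.6 CPM, and Dnajb11 124 and 62.7 CPM. P4hb went the other way, with 427 CPM in NFATc1/ΔS and 648 CPM in WT. This is 1 pair without replicates, and both of its libraries stood apart by correlation. In the Th1 day 3.5 libraries Hspa5 had 445 (NFATc1/ΔS) and 428 (WT) CPM, Calr 530 and 554 CPM, and Dnajb11 54.7 and 57.6 CPM. For Hspa5, Calr and Dnajb11 the WT day 2.5 value lay nearer to these, and the NFATc1/ΔS day 2.5 value lay above them. P4hb had 1141 and 1175 CPM at day 3.5, above both day 2.5 values. Over all 6 pairs no member and no gene of 13503 was called (0.0% either way; 5 members and 773 genes had an unadjusted p under 0.05; DESeq2 called 22 genes), with 23 estimates of members below 0; without the library labelled Th1 WT day 2.5 it was 30 and still none was called. A test of whether the genotype effect differed between Th1 and the other cultures, chosen after seeing the data, called no member and no gene (0.0% either way; 8 members and 889 genes had an unadjusted p under 0.05). With either Th1 day 3.5 library left out, so that the day 2.5 pair stood alone for Th1, it called 16 members, 15 with a higher and 1 with a lower response in Th1, where 17.1 to 17.2% of all genes were called higher and 14.0% lower.

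**Figure D2:**
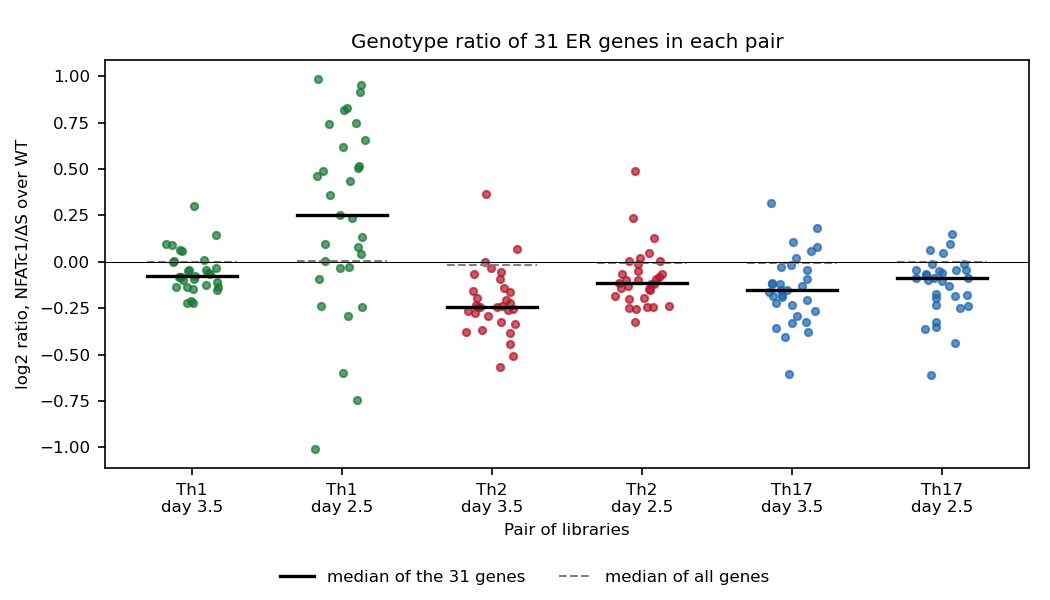
Log2 ratio of NFATc1/ΔS over WT (vertical axis) for the 31 genes in each of the 6 pairs of libraries (horizontal axis); each point is 1 gene, the solid line the median of the 31 and the dashed line the median of all genes. Medians lie below 0 in 5 pairs, between -0.24 and -0.075, and at 0.25 in the Th1 day 2.5 pair, where the points also spread most.

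The second comparison asked how the cultures differed. Th2 libraries held more of the ER folding machinery than Th17 libraries: 19 members were higher and 3 lower, with a median log2 difference of 0.40 (Th2 over Th17) against -0.03 over all genes. Many genes differ between these cultures, 19.8% being called higher and 20.7% lower, so 19 of 31 higher stands above that share and 3 of 31 lower below it. The 31 genes were chosen with earlier results of these data known, so this excess is a description and not a test. Higher were 7 of 9 genes of BiP and its partners, both lectin chaperones, 3 of 4 isomerases and all 5 genes of entry and glycosylation, and 1 of 7 degradation genes. The 31 genes summed to 7039 to 9527 CPM in Th2 libraries, against 4781 to 6657 CPM in Th17 libraries, and the ranges did not overlap.

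Hspa5 (ENSMUSG00000026864, chr2:34771970-34777547) had 809, 928, 823 and 911 CPM in the 4 Th2 libraries, against 450.3, 489, 478 and 567 CPM in the 4 Th17 libraries; here and below 4 values of a culture stand in the order NFATc1/ΔS day 3.5, WT day 3.5, NFATc1/ΔS day 2.5 and WT day 2.5. The groups did not overlap, and the log2 difference was 0.81 ± 0.064 (SE, 4 pairs, edgeR adjusted p = 6.7e-06). Hyou1, which exchanges the nucleotide of BiP, had 227, 271, 230.4 and 250.03 CPM in Th2 and 136, 154, 129 and 153 CPM in Th17 libraries. These did not overlap either, and the difference was 0.77 ± 0.058 (SE, edgeR adjusted p = 5.1e-06). Creld2, an ER stress-inducible protein of the lumen, had 38.8, 45.9, 30.5 and 25.9 CPM in Th2 against 18.7, 22.9, 15.7 and 16.2 CPM in Th17 libraries. Every Th2 value lay above every Th17 value, and its difference of 0.93 ± 0.083 was the largest of the 31 (SE, edgeR adjusted p = 1.6e-05). Sdf2l1 had 54.2, 77.1, 45.0 and 43.5 CPM in Th2 and 35.9, 46.6, 23.8 and 24.1 CPM in Th17 libraries. Here the groups overlapped, the WT day 3.5 value of Th17 lying above both day 2.5 values of Th2, and the difference within pairs was 0.76 ± 0.072 (SE, edgeR adjusted p = 2.2e-05). Of the other partners of BiP, Dnajb11 (0.69), Manf (0.61) and Hsp90b1 (0.61) were also higher on the log2 scale, while the J proteins Dnajb9 (-0.13) and Dnajc3 (0.18) did not pass.

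Calr, the soluble lectin chaperone, had 711, 926, 789.5 and 905 CPM in Th2 libraries, against 382, 460.4, 482 and 505 CPM in Th17 libraries. The groups stood clear of each other, with a log2 difference of 0.86 ± 0.066 (SE, edgeR adjusted p = 5.8e-06), and its membrane-bound relative Canx was higher by 0.57. P4hb (ENSMUSG00000025130, chr11:120560298-120573253) had 1072, 1354, 1998 and 2356 CPM in Th2 and 594, 697, 1446 and 1492 CPM in Th17 libraries. Both day 2.5 values of Th17 lay above the day 3.5 values of Th2, so the groups overlapped, and within pairs the difference was 0.73 ± 0.084 (SE, edgeR adjusted p = 9.9e-05). Pdia6 had 274, 343, 309 and 335 CPM in Th2 against 164, 209.8, 174 and 218 CPM in Th17 libraries, without overlap, and a difference of 0.72 ± 0.06 (SE, edgeR adjusted p = 1.0e-05). Pdia4 was higher by 0.50. Ostc, a subunit of the oligosaccharyltransferase that acts at the translocon, had 132, 159, 156 and 196 CPM in Th2 and 80.4, 85.8, 102 and 116 CPM in Th17 libraries. All 4 Th2 values were the higher, with a difference of 0.74 ± 0.063 (SE, edgeR adjusted p = 1.2e-05). Of the channel and its associated complex, Sec61a1 (0.21), Sec61b (0.40), Ssr1 (0.33) and Ssr2 (0.61) were higher as well.

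The other way ran 3 members, picked out after their values were seen. Pdia3, the isomerase that pairs with calnexin and calreticulin, had 230.3, 268, 259 and 284 CPM in Th2 libraries, against 288, 322, 321 and 341 CPM in Th17 libraries. No Th2 value reached a Th17 value, unlike the lectin chaperones it works with, and the difference was -0.29 ± 0.056 (SE, edgeR adjusted p = 0.00235). Herpud1, an ER stress-induced scaffold of the degradation complex, had 36.5, 49.6, 57.7 and 59.7 CPM in Th2 and 66.6, 61.9, 82.0 and 78.5 CPM in Th17 libraries, a difference of -0.52 ± 0.088 (SE, edgeR adjusted p = 0.00133). Edem1, which takes misfolded glycoproteins toward degradation, fell by 0.30 on the log2 scale. Among the other degradation genes Syvn1, the ubiquitin ligase HRD1, was higher by 0.31, and Sel1l (0.049), Derl1 (0.17), Derl2 (-0.099) and Derl3 (-0.29) did not pass.

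Of the sensors and their target, Xbp1 alone differed. It had 431, 510.1, 318 and 350.0 CPM in Th2 libraries, against 278, 325, 191 and 205 CPM in Th17 libraries. Only the highest Th17 value, from a day 3.5 library, overlapped the Th2 range, and the log2 difference was 0.69 ± 0.059 (SE, 4 pairs, edgeR adjusted p = 1.1e-05). Ern1 had a difference of 0.30 ± 0.14, Atf6 of 0.044 ± 0.068 and Eif2ak3 of -0.096 ± 0.11 (SE), with edgeR adjusted p of 0.106, 0.635 and 0.516. By promoter class, 7 of the 9 genes with an ERSE were higher in Th2 (median log2 difference 0.61). Of the 13 with a window and neither element 6 were higher and 2 lower (median 0.30). Of the 7 without a window 5 were higher and 0 lower, with a median of 0.61 like that of the ERSE genes. The ERSE-II genes split, Dnajb11 being higher and Herpud1 lower. For the genotype in Th2 and Th17 pairs the median was -0.091 for the ERSE genes and -0.18 for those with neither element. Between days in Th2 and Th17, 1 of the 9 ERSE genes rose and 1 fell. Of the 13 genes with neither element 2 rose and 5 fell. Whether the classes differ was not tested in any comparison.

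The summed markers of B cells, plasma cells and dendritic or myeloid cells were also higher in Th2 libraries, without overlap of the sums. Single markers did not all follow their sum. Itgam went the other way, with 0.281 to 0.962 CPM in Th2 and 0.631 to 1.345 CPM in Th17 libraries. Lyz2, Cd14, Csf1r, Ms4a1 and Jchain overlapped between the cultures. The 6 B cell markers, none at 0 in either culture, summed to 21.3 to 26.3 CPM in Th2 and 5.12 to 12.2 CPM in Th17 libraries, and the 5 plasma cell markers summed to 18.8 to 39.8 CPM in Th2 and 9.49 to 15.2 CPM in Th17 libraries, most of it Sdc1. Of the plasma cell markers 1 to 3 were at 0 in each of these libraries, Igkc in all of them. The 6 dendritic and myeloid markers, of which 0 to 2 were at 0 in a library, summed to 4.12 to 7.02 CPM in Th2 and 1.80 to 3.53 CPM in Th17 libraries. Their part in the culture difference was not tested. Without the pair terms 14 members were called, all higher, and with Th1 libraries in the fit 13 were higher and 1 lower. Across the alternative fits 1594 to 5395 of all genes were called, against 5288 in the fit reported.

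**Figure D3:**
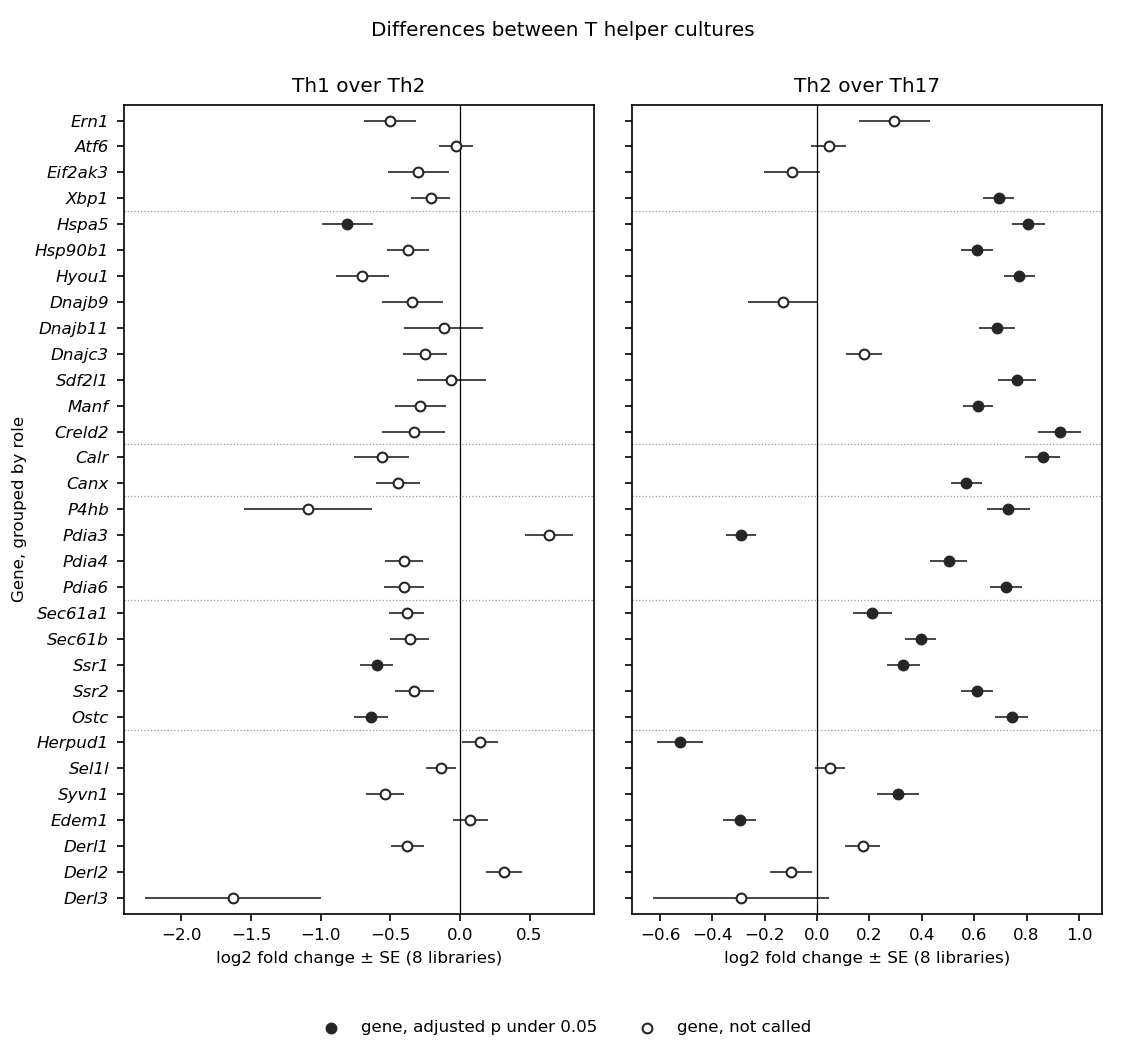
Log2 fold change ± SE of the 31 genes (rows, grouped by role) for Th1 over Th2 (left) and Th2 over Th17 (right), each from 8 libraries; filled points passed an adjusted p under 0.05. On the right 19 points are filled above 0 and 3 below, and on the left 3 are filled, all below 0.

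Th1 libraries were lower than Th2 libraries for 3 members, and none was higher. Over all genes 4.94% were called higher and 8.16% lower, so 3 of 31 is near the background share. Hspa5 had 445, 428, 747 and 475 CPM in the 4 Th1 libraries, against 809, 928, 823 and 911 CPM in the 4 Th2 libraries. The groups did not overlap, the NFATc1/ΔS day 2.5 value being the highest of Th1, and the log2 difference was -0.81 ± 0.18 (SE, 4 pairs, edgeR adjusted p = 0.0427). Ssr1, a subunit of the translocon-associated complex, had 189.8, 201, 261 and 244 CPM in Th1 and 266, 312, 340.1 and 403 CPM in Th2 libraries, and Ostc had 96.9, 106, 109 and 109 CPM in Th1 and 132, 159, 156 and 196 CPM in Th2 libraries. Neither overlapped, with differences of -0.60 ± 0.12 and -0.64 ± 0.12 (SE, edgeR adjusted p = 0.029 and 0.0267). Of 31 estimates 27 were below 0, with a median of -0.36. The B cell markers summed to 1.44 to 2.75 CPM in Th1 and 21.3 to 26.3 CPM in Th2 libraries, with 0 to 3 of the 6 at 0 in a Th1 library. The plasma cell markers summed to 3.20 to 10.3 CPM in Th1 and 18.8 to 39.8 CPM in Th2 libraries, with 2 of the 5 at 0 in each Th1 library, and the dendritic and myeloid sums overlapped. The part of these markers in the difference was not tested.

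These counts changed with the libraries used. Without the library labelled Th1 WT day 2.5 no member was called, and the same held when either pair of day 3.5 libraries was left out, while leaving out the NFATc1/ΔS day 2.5 pair gave 7, all lower (5.62% of all genes were called higher and 8.46% lower in that fit). With both Th1 day 2.5 libraries left out, an alternative chosen after seeing the data that compares day 3.5 alone, 20 members were called, where 20.2% of all genes were called higher and 23.0% lower. This fit and that of day 3.5 against Th17 below hold 1 Th1 library per genotype. Their spread rests on 1 pair per genotype, with the genotypes standing in for replicates. In Th1 19 were lower, with Hspa5 at -1.02, Hyou1 at -0.89, Creld2 at -0.76 and Syvn1 at -0.69, and Pdia3 was higher by 0.55. Against Th17, no member was called in Th1 (0.061% of genes were called higher and 0.00763% lower; 6 members and 1957 genes had an unadjusted p under 0.05, and DESeq2 called 601 genes). At day 3.5 alone 9 were higher in Th1, among them P4hb by 0.85 and Pdia6 by 0.47, and Herpud1 was lower, at -0.28. In that fit 15.9% of all genes were called higher and 16.3% lower.

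The third comparison was between days. In Th2 and Th17 cultures 4 members rose and 10 fell at day 3.5 relative to day 2.5, in a background where 19.9% of genes rose and 18.7% fell. The 4 of 31 that rose are therefore not a larger share than that of all genes, while the 10 of 31 that fell are. The risers were Xbp1 and 3 genes around BiP, and 4 of the 5 genes of protein entry fell, Ssr2 being the one that did not pass (-0.071). Degradation genes fell in 3 of 7, and no isomerase or lectin chaperone rose.

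P4hb fell most. It had 1072 (NFATc1/ΔS) and 1354 (WT) CPM in Th2 cells at day 3.5, against 1998 (NFATc1/ΔS) and 2356 (WT) CPM at day 2.5. In Th17 cells it had 594 (NFATc1/ΔS) and 697 (WT) CPM at day 3.5, against 1446 (NFATc1/ΔS) and 1492 (WT) CPM at day 2.5. Day 3.5 was the lower in all 4 pairs, without overlap inside a culture, and the log2 change was -1.02 ± 0.086 (SE, 4 pairs, edgeR adjusted p = 2.9e-05). P4hb made up 12.4 to 16.3% of the summed CPM of the 31 genes in these cultures at day 3.5 and 22.4 to 24.7% at day 2.5.

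Xbp1 rose. It had 431 (NFATc1/ΔS) and 510.1 (WT) CPM in Th2 at day 3.5, against 318 (NFATc1/ΔS) and 350.0 (WT) CPM at day 2.5, and 278 (NFATc1/ΔS) and 325 (WT) CPM in Th17 at day 3.5, against 191 (NFATc1/ΔS) and 205 (WT) CPM at day 2.5. Day 3.5 was the higher in all 4 pairs, by 0.55 ± 0.065 (SE, edgeR adjusted p = 1.8e-04). Sdf2l1 had 54.2 (NFATc1/ΔS) and 77.1 (WT) CPM in Th2 at day 3.5, against 45.0 (NFATc1/ΔS) and 43.5 (WT) CPM at day 2.5, and 35.9 (NFATc1/ΔS) and 46.6 (WT) CPM in Th17 at day 3.5, against 23.8 (NFATc1/ΔS) and 24.1 (WT) CPM at day 2.5. The day 2.5 values of a culture were nearly alike between genotypes and every day 3.5 value exceeded them, with a change of 0.66 ± 0.11 (SE, edgeR adjusted p = 0.00112). Creld2 had 38.8 (NFATc1/ΔS) and 45.9 (WT) CPM in Th2 at day 3.5, against 30.5 (NFATc1/ΔS) and 25.9 (WT) CPM at day 2.5, and 18.7 (NFATc1/ΔS) and 22.9 (WT) CPM in Th17 at day 3.5, against 15.7 (NFATc1/ΔS) and 16.2 (WT) CPM at day 2.5. It too was higher at day 3.5 in each pair, by 0.49 ± 0.10 (SE, edgeR adjusted p = 0.00344), and Dnajb11, the J protein ERdj3, had 80.2 (NFATc1/ΔS) and 89.4 (WT) CPM in Th2 at day 3.5, against 62.1 (NFATc1/ΔS) and 66.4 (WT) CPM at day 2.5, and rose by 0.38 over both cultures. BiP itself did not pass, with -0.073 ± 0.067 (SE, edgeR adjusted p = 0.416).

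Eif2ak3, the sensor PERK, had 41.9 (NFATc1/ΔS) and 46.9 (WT) CPM in Th2 at day 3.5, against 54.9 (NFATc1/ΔS) and 55.5 (WT) CPM at day 2.5, and 46.0 (NFATc1/ΔS) and 37.0 (WT) CPM in Th17 at day 3.5, against 61.6 (NFATc1/ΔS) and 72.5 (WT) CPM at day 2.5. It fell in every pair, by 0.50 on the log2 scale (edgeR adjusted p = 0.00623). Of the entry genes Sec61b had 76.6 (NFATc1/ΔS) and 88.3 (WT) CPM in Th2 at day 3.5, against 114 (NFATc1/ΔS) and 121 (WT) CPM at day 2.5, and 57.8 (NFATc1/ΔS) and 72.6 (WT) CPM in Th17 at day 3.5, against 82.6 (NFATc1/ΔS) and 88.8 (WT) CPM at day 2.5. Within each culture both day 3.5 values were the lower, and the change was -0.46 ± 0.068 (SE, edgeR adjusted p = 6.2e-04). Ssr1 had 266 (NFATc1/ΔS) and 312 (WT) CPM in Th2 at day 3.5, against 340.1 (NFATc1/ΔS) and 403 (WT) CPM at day 2.5, and 205 (NFATc1/ΔS) and 237 (WT) CPM in Th17 at day 3.5, against 299.9 (NFATc1/ΔS) and 309 (WT) CPM at day 2.5. Sec61a1, the channel's pore, had 228 (NFATc1/ΔS) and 269.9 (WT) CPM in Th2 at day 3.5, against 275 (NFATc1/ΔS) and 316 (WT) CPM at day 2.5, and 186 (NFATc1/ΔS) and 201 (WT) CPM in Th17 at day 3.5, against 265 (NFATc1/ΔS) and 298 (WT) CPM at day 2.5. Both were lower at day 3.5 in every pair, with changes of -0.41 ± 0.064 and -0.39 ± 0.075 (SE, edgeR adjusted p = 8.0e-04 and 0.00242). Herpud1 (-0.39), Ostc (-0.33), Derl1 (-0.28), Edem1 (-0.23) and Canx (-0.18) also fell. Of the remaining sensors Ern1 had -0.21 ± 0.14 and Atf6 -0.12 ± 0.066, and Derl3 had -0.33 ± 0.31; none of these 3 passed.

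Tested inside each culture, 4 members rose and 8 fell in Th2 cells (13.5% of genes rose and 14.6% fell) and 4 rose and 9 fell in Th17 cells (16.1% and 16.2%). Of these, 10 were called in the same direction in both, and no member was called in opposite directions. In neither culture were the 4 of 31 that rose a larger share than that of all genes. Dnajb9, another J protein of BiP, had 7.36 (NFATc1/ΔS) and 7.02 (WT) CPM in Th2 at day 3.5, against 10.3 (NFATc1/ΔS) and 11.4 (WT) CPM at day 2.5, both day 3.5 values being the lower. Dnajb9 fell by 0.59 and Edem1 by 0.27 in Th2 without passing in Th17, and Eif2ak3 fell by 0.69, Derl1 by 0.38 and Dnajc3 by 0.30 in Th17 without passing in Th2, but no member's change passed the test of a difference between the cultures (over all genes 0.573% had a higher and 0.917% a lower response in Th17; 3 members and 1684 genes had an unadjusted p under 0.05). The share of reads in introns was 2.93 to 4.16% in Th2 and Th17 libraries at day 3.5 and 2.28 to 3.43% at day 2.5; its part in the change between days was not tested. Without pair terms only Eif2ak3 was called, and with Th1 libraries in the fit 8 members were. Across the alternative fits 1961 to 5419 of all genes were called, against 5054 in the fit reported. Calls inside Th2 were the less stable: leaving out 1 Th2 library gave 4 members (either WT library) or 6 (either NFATc1/ΔS library).

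**Figure D4:**
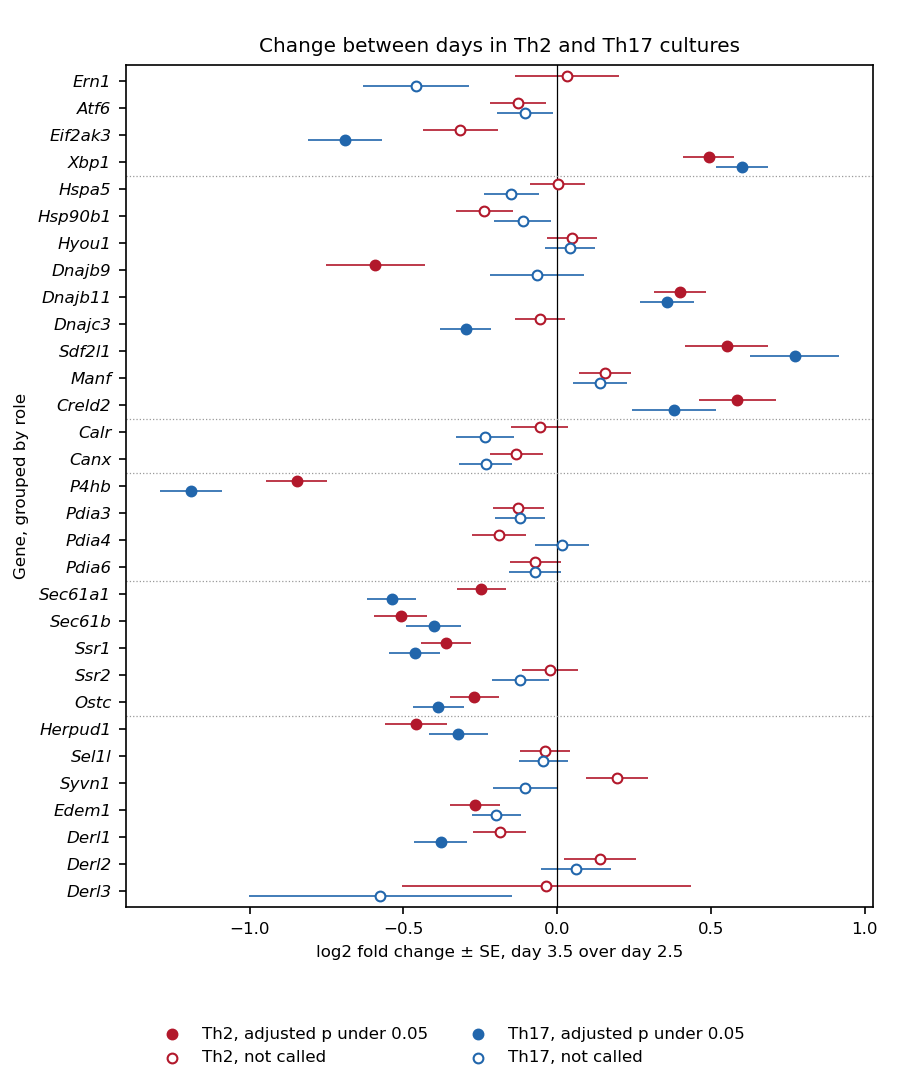
Log2 fold change ± SE, day 3.5 over day 2.5 (horizontal axis), of the 31 genes (rows, grouped by role) in Th2 (red) and Th17 (blue) cultures; filled points passed an adjusted p under 0.05. P4hb lies farthest to the left in both, at -0.85 in Th2 and -1.19 in Th17, and Xbp1, Dnajb11, Sdf2l1 and Creld2 lie to the right in both.

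In Th1 cultures P4hb changed the other way between days. It had 1141 (NFATc1/ΔS) and 1175 (WT) CPM at day 3.5, against 427 (NFATc1/ΔS) and 648 (WT) CPM at day 2.5. The Th1 libraries of day 2.5 are those that stood apart. A test of the difference in day response between Th1 and the other cultures, chosen after these values were seen, called 3 members higher and 1 lower in Th1. Over all genes 11.8% were called higher and 12.2% lower, so the 4 of 31 members are not a larger share. The difference for P4hb was 2.16 ± 0.21 on the log2 scale (SE, edgeR adjusted p = 7.4e-04), and it was 1.88 to 2.44 with any 1 Th1 library left out. Dnajb11 had 54.7 (NFATc1/ΔS) and 57.6 (WT) CPM in Th1 at day 3.5, against 124 (NFATc1/ΔS) and 62.7 (WT) CPM at day 2.5, so that the NFATc1/ΔS library of day 2.5 alone was high. Eif2ak3 had 47.1 (NFATc1/ΔS) and 47.0 (WT) CPM at day 3.5, against 28.0 (NFATc1/ΔS) and 47.0 (WT) CPM at day 2.5, and again that library stood apart. Derl3 had 8 and 8 reads in Th1 at day 3.5, against 1 and 2 reads at day 2.5 (NFATc1/ΔS, then WT), and its call was lost when any 1 Th1 library was left out. Over all 6 blocks of culture and genotype no member and no gene was called for day (0.0% either way; 8 members and 1458 genes had an unadjusted p under 0.05, and DESeq2 called 147 genes).

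**Figure D5:**
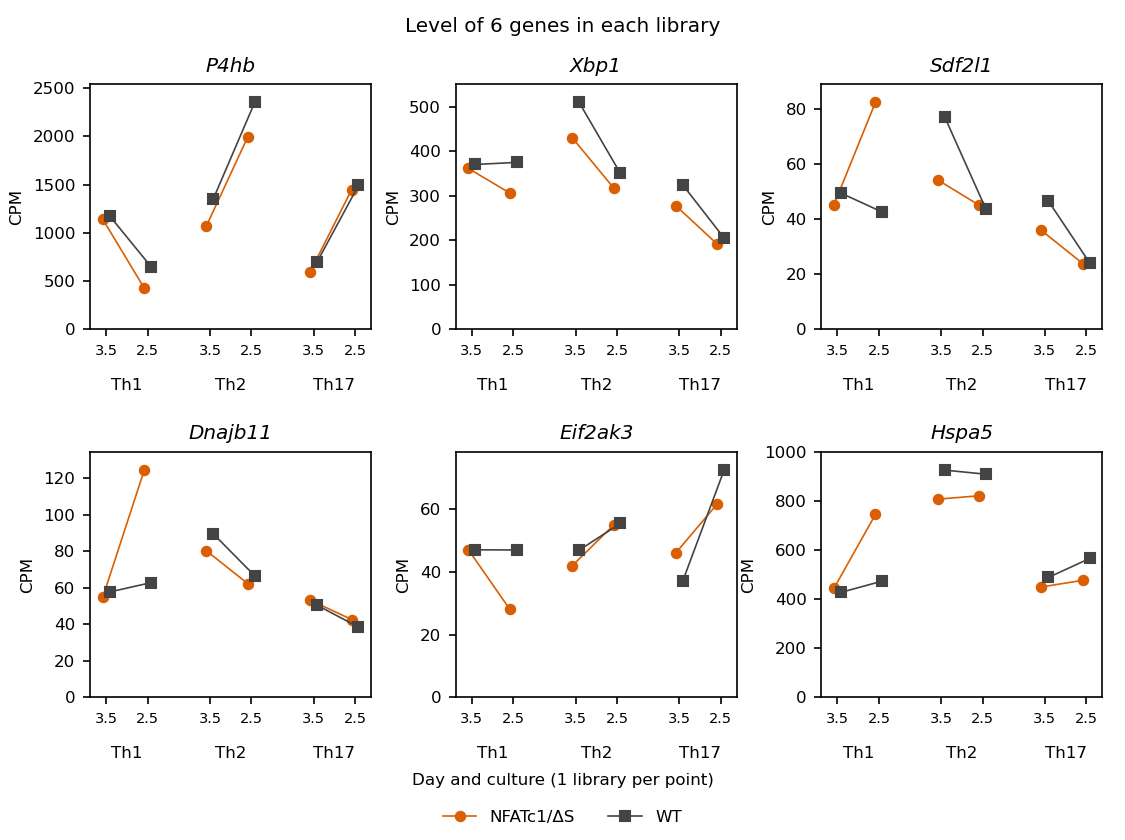
CPM (vertical axis, from 0) of 6 genes in each library, by culture and day (horizontal axis); circles are NFATc1/ΔS and squares WT, and a line joins the libraries of 1 genotype. P4hb is lower at day 3.5 in Th2 and Th17 and higher in Th1, and the NFATc1/ΔS day 2.5 library of Th1 is high for Sdf2l1, Dnajb11 and Hspa5.

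Other ER genes, 126 in 7 lists of which 122 were tested, were tested in the same fits. The lists too were chosen with earlier results of these data known, so their counts beside all genes are descriptions. Between Th2 and Th17, 57 were higher and 8 lower, where 19.8% of all genes were called higher and 20.7% lower. The oligosaccharyltransferase and glycan trimming list had 12 of 15 higher and none lower (median log2 difference 0.36), with Krtcap2 at 0.71 and Uggt1, which marks unfolded glycoproteins for another round of folding, at 0.54. Of 22 genes of ER exit and retrieval 13 were higher and 1 lower, with the cargo receptor Tmed10 at 0.43. Of 22 other oxidoreductases, isomerases and exchange factors 10 were higher and 2 lower, with Ero1l, the oxidase that recharges P4hb, at 0.66 and Dnajc10 at -0.80. Of 21 translocon genes 11 were higher and 1 lower, led by Sec61g at 0.64. The PERK and ATF4 branch had 5 of 11 higher and 1 lower, with Atf3 at 1.56 and Sesn2 at 0.46. Of 23 other degradation genes 5 were higher, near the share of all genes, and 1 lower, with Os9, a lectin of the degradation complex, at 0.72, and of 8 other sensors and site proteases 1 was higher and 2 lower.

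Between days in Th2 and Th17, 9 of the 122 rose and 42 fell, where 19.9% of all genes rose and 18.7% fell. ER exit and retrieval had 11 of 22 lower and none higher, including the retrieval receptors Kdelr3 (-1.24), Kdelr2 (-0.72) and Kdelr1 (-0.58). Translocon genes had 7 of 21 lower and 2 higher, with Ssr3 at -0.70 and Srp72 at -0.61. Glycosylation and trimming genes had 7 of 15 lower, with Stt3b at -0.48, and 2 higher, with Mogs at 0.66. Other oxidoreductases had 5 of 22 lower and 1 higher, with Ero1l at -0.69, other degradation genes 6 of 23 lower, with Erlec1 at -0.50, the PERK and ATF4 branch 5 of 11 lower and 2 higher, with Trib3 at -0.45, and other sensors 1 of 8 lower and 2 higher, with Atf6b at 0.51. For the genotype, 3 of 122 were lower in NFATc1/ΔS and none higher (1.28% and 0.68% of all genes): Ero1l at -0.38, Dnajc1 at -0.33 and Ssr3, a partner of Ssr1, at -0.26 (edgeR adjusted p = 0.0112, 0.0192 and 0.0445). Of the 122 estimates 100 were below 0, against 51.3% of all genes. Atf4, the transcription factor translated when PERK is active, had -0.22 (edgeR adjusted p = 0.0675) and did not pass. Within Th2, 1 of the 122 was lower, Dnajc1 at -0.46 (edgeR adjusted p = 0.0178), where 0.718% of all genes were called lower. Within Th17, 1 was lower, Atf3 at -0.68 (edgeR adjusted p = 0.00534), where 1.02% of all genes were called lower. None was higher in either culture. Between Th1 and Th2, 21 of 122 were lower and 2 higher in Th1 (8.16% and 4.94% of all genes), with Atf3 at -1.48, Sec24d at -1.16 and Prkcsh at -0.88; the Th1 day 2.5 libraries are part of this count.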

How the data were processed

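Poly(A) RNA of 12 CD4+ T cell libraries was analysed from the deposited gene read counts, which the authors made per gene against GRCm38, per the submitters' processing notes; the sources used here name no aligner, counter or strand setting. RPKM and TPM columns in the deposited tables were left aside, and TPM was computed here from exon reads and exon length. Libraries held 13417121 to 17774400 gene reads. Genes were filtered with filterByExpr (minimum count 10, minimum total 15), normalised by TMM and tested with edgeR 4.0.16 (quasi-likelihood, robust; R 4.3.3), with pairs or blocks as terms and Benjamini-Hochberg adjustment over all genes tested, at 0.05. CPM use TMM library sizes.

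Genotype, culture and day were compared. Alternatives were DESeq2 1.42.0, RLE size factors, no read filter, uniquely mapped reads, no blocks, all 12 libraries in 1 model and leaving out libraries. The differences in response between Th1 and the other cultures, and the fits without both Th1 day 2.5 libraries, were added after seeing the data. Members and lists were chosen with earlier results of these data known. Values per library are given for members called for genotype (up to 12), for the up to 8 largest called changes in each culture or day comparison, and for Ern1, Atf6, Eif2ak3, Xbp1, Hspa5 and Derl3; from each other list up to 4 genes of smallest p are named. On simulated data 71.8 to 87.2% of 2-fold changes were recovered, with 4 to 8 false calls, in 5 of the comparisons. No smaller change was simulated, so recovery of changes as small as the genotype estimates of the members is not known. Promoter letters are RefSeq (GRCm38.p6).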

Additional observations from a re-analysis of the deposited data

Results flagged for a closer look

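In 4 genes the change between days differed between Th1 and the other cultures, in a test of that difference added after seeing the data. Over all genes 11.8% had a higher and 12.2% a lower response in Th1, so 4 of 31 is not a larger share than that of all genes. P4hb had a difference of 2.16 on the log2 scale (edgeR adjusted p = 7.4e-04), higher in both Th1 blocks and lower in all 4 Th2 and Th17 blocks. Dnajb11 had -1.04 (edgeR adjusted p = 0.0275), and -1.56 to -0.50 with 1 Th1 library left out. Eif2ak3 had 0.88 (edgeR adjusted p = 0.0472); without either NFATc1/ΔS Th1 library it was 0.51 and did not pass. Derl3 had 2.54 (edgeR adjusted p = 0.0354) from 8 and 8 reads at day 3.5, against 1 and 2 reads at day 2.5 (NFATc1/ΔS, then WT) in Th1, and leaving out any 1 Th1 library ended the call. The day 2.5 Th1 libraries stood apart from the rest, and their part in these differences was not tested.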

How the results depend on the processing

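Numbers are members called of 31. For the genotype in Th2 and Th17 pairs (2 called), 4 were called with no read filter, 4 with uniquely mapped reads, and 0 both without blocks and with all 12 libraries; leaving out a pair gave 0 to 1. Within Th2 (0 called), no filter gave 2 and leave-one-out 0 to 1; within Th17 (0 called), no filter gave 2, unique reads 3 and leave-one-out 0 to 1. For the difference in genotype response between days (0 called), no filter gave 1 and leave-one-out 0 to 1. Between Th1 and Th2 (3 called), DESeq2 gave 7, no blocks 7, all 12 libraries 9, the fit without the library labelled Th1 WT day 2.5 gave 0, leave-one-out 0 to 7, and the fit without both Th1 day 2.5 libraries 20. Between Th1 and Th17 (0 called), all 12 libraries gave 1 and the fit without both Th1 day 2.5 libraries 10; there P4hb turned to 0.85. Between Th2 and Th17 (22 called), no blocks gave 14 and all 12 libraries 14, with 21 to 24 on leaving out a pair. For day in Th2 and Th17 (14 called), no blocks gave 1 and all 12 libraries 8, with 12 to 15 on leaving out a block. For day over 6 blocks (0 called), DESeq2 gave 1 and leave-one-out 0 to 1. For day in Th2 (12 called), DESeq2 gave 7, all 12 libraries 0 and leave-one-out 4 to 14; for day in Th17 (13 called), all 12 libraries gave 0 and leave-one-out 9 to 13. For the difference in day response between Th17 and Th2 (0 called), leave-one-out gave 0 to 1. For the added differences of Th1, leave-one-out gave 5 to 12 for day (4 called) and 0 to 16 for genotype (0 called). The cause of these moves was not tested.

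Over all genes, the alternatives gave 1 to 630 calls for the genotype in Th2 and Th17 pairs (257 in the fit reported). Between cultures they gave 530 to 5879 for Th1 and Th2 (1734), 0 to 4344 for Th1 and Th17 (9) and 1594 to 5395 for Th2 and Th17 (5288). For day they gave 1961 to 5419 in Th2 and Th17 (5054), 0 to 4075 in Th2 (3679) and 0 to 4533 in Th17 (4236). The counts of all genes therefore moved widely too. RLE size factors moved no count of members by over 1.5 times. The labels carry no replicate numbers; the pairs and blocks are libraries that share culture, genotype or day. With 1 library per combination, spread was estimated over pairs or blocks, and Derl3 (1 to 21 reads) was too low to show small changes.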
